A study of Mus musculus with 2 samples.

Results

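The genes described here are 37 markers and receptors of T cells and natural killer (NK) cells, read in the raw count table of 2 mouse rhabdoid tumors (RT). They were listed by name as T and NK cell genes, by a rule that uses no measured value but with earlier results of these data known, and each matched 1 row of the 55416 genes in the table. Both tumors came from Dppa3-cre::Smarcb1 mice, in which Cre was knocked into the Dppa3 gene behind an internal ribosome entry site on a C57BL/6 background and, per the study's methods, a single Smarcb1 allele was floxed (Fl/+). Dppa3 is active in primordial germ cells and also in oocytes and early embryos, and Smarcb1 encodes part of the core of SWI/SNF, a complex that remodels chromatin. The labels give 1 tumor as intracranial (trigeminal nerve) and 1 as extracranial (facial, at the upper jaw), and classify both as MYC. Neither the ages of the mice nor a genotype of each tumor was given in the sources used here, and no normal tissue or tumor-free mouse was compared here.

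The question was how the lymphocyte transcripts differed between tumors at different locations in the same model. With 1 library per location, no test between locations was possible. Every interval given is a 95% interval that covers counting error only, since no location had a second library. The reads carried no molecular identifiers and may include copies of a molecule, so the intervals may be too narrow even for counting error. The words higher and lower compare the 2 libraries. Levels are given in CPM, which are counts scaled to library size, and ratios are extracranial over intracranial, so that a positive log2 ratio is a higher level in the library labelled extracranial. A difference was taken as beyond counting error where the whole interval lay on 1 side of an equal level, and as beyond 4-fold where the whole interval lay past 4-fold. A count of 3 or fewer was treated as background, which corresponds to 0.0863 CPM in the library labelled intracranial and 0.112 CPM in that labelled extracranial.

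T cells carry a T cell receptor, made of alpha and beta or of gamma and delta chains, which signals through the CD3 chains. Most alpha beta receptors recognize peptides bound to MHC molecules. The coreceptors CD4 and CD8 bind MHC class II and class I, respectively, and are found on most alpha beta T cells but are absent from many gamma delta T cells. NK cells carry no rearranged receptor and use germline-encoded activating and inhibitory receptors instead. Both lineages can kill target cells with perforin and granzymes and secrete interferon gamma. Several of the genes are not limited to lymphocytes: Cd4 and Cd8a are also made by myeloid cells, and Havcr2 and Cd274 by myeloid and by other cells.

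The libraries held 34545846 (intracranial) and 26915696 (extracranial) counts. Smarcb1, the targeted gene, had 365 (intracranial) and 530 (extracranial) counts, or 10.5 CPM (interval 9.45 to 11.6) and 19.8 CPM (18.2 to 21.6). Because the floxed part of the gene was not read separately and the tumor pieces could hold cells of other types, these counts do not check the deletion. The library labelled intracranial also stood apart by surface epithelial transcripts, which were looked up after the data had been seen: Krt5 had 25883 counts against 0, Krt13 366709 against 5, Krt14 74653 against 2 and Epcam 938 against 1. The locations are therefore given throughout as labels of the libraries, and where values are set against each other the library labelled intracranial comes first. Whether the location labels fit the libraries was not tested, and if the labels were exchanged, the direction of every ratio with respect to location would turn.

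Promoter windows of the members were taken from the RefSeq annotation (GRCm38.p6). A window holds 250 bases before and 50 bases after the start of the gene, and was found for 25 of the 37 members, with 29 windows in all. Both strands were searched for the letters TGTGGT (the core bound by RUNX factors), AGGAAG (a form of the ETS factor core) and TATAAA (the TATA box core). The RUNX letters were found in 13 of the 29 windows, against 16.8% of 32851 windows of all genes. The ETS letters were found in 16 of the 29, against 35.4%, and the TATA letters in 2 of the 29, against 13.6%. Since 3 members (Lck, Zap70 and Ncr1) had several windows, and those of Ncr1 overlap almost wholly, matches were also counted by gene. At least 1 window held the RUNX letters for 12 of the 25 members and 18.9% of 27025 genes, the ETS letters for 14 and 38.4%, and the TATA letters for 2 and 15.7%. A match is a run of letters and not a bound site. Shown are 6 windows, written 5′ to 3′ on the strand of the gene, with RUNX and ETS matches on either strand in capitals. Nkg7 (chr7:43436888-43437187, plus strand), Klrk1 (chr6:129623815-129624114, minus strand) and Cd8a (chr6:71373177-71373476, plus strand) are shown because they were among the members that differed beyond 4-fold. Cd3d (chr9:44981536-44981835, plus strand), Cd3g (chr9:44980382-44980681, minus strand) and Cd3e (chr9:45009562-45009861, minus strand) are shown because their levels differed by less than the counting error.
Nkg7: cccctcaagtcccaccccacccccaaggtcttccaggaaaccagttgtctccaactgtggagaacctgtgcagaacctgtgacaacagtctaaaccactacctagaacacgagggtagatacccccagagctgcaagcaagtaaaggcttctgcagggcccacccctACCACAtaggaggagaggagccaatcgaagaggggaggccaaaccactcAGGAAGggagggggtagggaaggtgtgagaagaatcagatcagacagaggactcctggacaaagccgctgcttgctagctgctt
Klrk1: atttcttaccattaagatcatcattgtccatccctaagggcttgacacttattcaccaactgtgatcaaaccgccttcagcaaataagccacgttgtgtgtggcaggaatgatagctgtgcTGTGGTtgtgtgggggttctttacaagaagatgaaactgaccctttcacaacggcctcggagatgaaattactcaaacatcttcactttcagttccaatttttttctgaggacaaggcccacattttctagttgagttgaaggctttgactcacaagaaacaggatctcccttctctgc
Cd8a: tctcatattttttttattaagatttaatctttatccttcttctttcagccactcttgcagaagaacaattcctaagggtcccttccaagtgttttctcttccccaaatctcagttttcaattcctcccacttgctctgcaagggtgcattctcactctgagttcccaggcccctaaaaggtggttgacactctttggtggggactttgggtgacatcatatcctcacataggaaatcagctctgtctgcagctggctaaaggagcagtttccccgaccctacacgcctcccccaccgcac
Cd3d: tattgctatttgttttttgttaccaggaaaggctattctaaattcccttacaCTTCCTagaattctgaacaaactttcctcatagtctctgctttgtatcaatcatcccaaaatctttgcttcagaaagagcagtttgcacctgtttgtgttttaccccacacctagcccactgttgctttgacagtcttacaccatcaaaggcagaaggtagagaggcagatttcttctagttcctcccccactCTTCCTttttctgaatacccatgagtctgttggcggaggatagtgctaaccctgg
Cd3g: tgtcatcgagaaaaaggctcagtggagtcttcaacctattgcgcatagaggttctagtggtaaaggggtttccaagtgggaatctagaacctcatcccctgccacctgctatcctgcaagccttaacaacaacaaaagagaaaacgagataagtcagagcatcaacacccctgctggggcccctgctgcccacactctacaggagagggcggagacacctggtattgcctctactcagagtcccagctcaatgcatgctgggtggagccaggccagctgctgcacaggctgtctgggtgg
Cd3e: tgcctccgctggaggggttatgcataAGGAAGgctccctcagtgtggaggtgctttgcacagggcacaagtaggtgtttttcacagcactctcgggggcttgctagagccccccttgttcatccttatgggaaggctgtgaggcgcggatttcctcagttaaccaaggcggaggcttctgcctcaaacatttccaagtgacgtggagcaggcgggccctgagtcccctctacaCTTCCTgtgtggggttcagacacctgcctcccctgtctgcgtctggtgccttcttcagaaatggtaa
The RUNX letters occurred once in the Nkg7 window and once in the Klrk1 window, and were absent from the windows of Cd8a and of the 3 CD3 genes. Among windows not shown, they also occurred in higher members (Lck, Gzmb, Prf1 and Klrb1c) and in lower members (Havcr2 and Zap70). They occurred as well in members within counting error (Lat, Tigit and Gzma) and in Ncr1, which had too few counts for a call. Whether the letters go with a difference between the libraries was not tested. The ETS letters occurred once in the Nkg7 window and were matched at 2 positions each in Cd3d and Cd3e. No TATA letters were found in any of these windows. The Cd3g window, which lies beside that of Cd3d on the other strand of chromosome 9, held no match.

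All 37 members had at least 1 count in each library, but most at a low level. In the library labelled intracranial, member counts ran from 1 (Ifng) to 868 (Havcr2) with a median of 25, and 32 members were above the floor. In the library labelled extracranial they ran from 3 (Ncr1) to 374 (Lag3) with a median of 70, and 36 were above the floor. Together the members took 3567 counts (103 CPM, interval 99.3 to 106) and 3946 counts (147 CPM, interval 143 to 152), which is 0.0103% and 0.0147% of the respective library. Of the 36 members with 10 or more counts over both libraries, 22 were higher beyond counting error in the library labelled extracranial, 6 were lower and 8 differed by less than the counting error. Over all 21977 genes tested, 29.2% were higher and 32.2% were lower by the same rule. Beyond 4-fold, 5 members were higher (Cd4, Cd8a, Cd8b1, Nkg7 and Klrk1) and none was lower, against 1.78% and 5.41% of all genes tested. The median log2 ratio of the members was 1.35, with a range from -1.24 (Icos) to 4.08 (Cd8a), and that of all genes tested was -0.04. Among members with 100 or more counts over both libraries, 11 were higher and 6 lower beyond counting error, and the median log2 ratio was 0.32. The shares of all genes at this limit were not computed. Since these were pieces of bulk tumor, fewer cells of a type and less RNA per cell cannot be told apart.

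**Figure D1:**
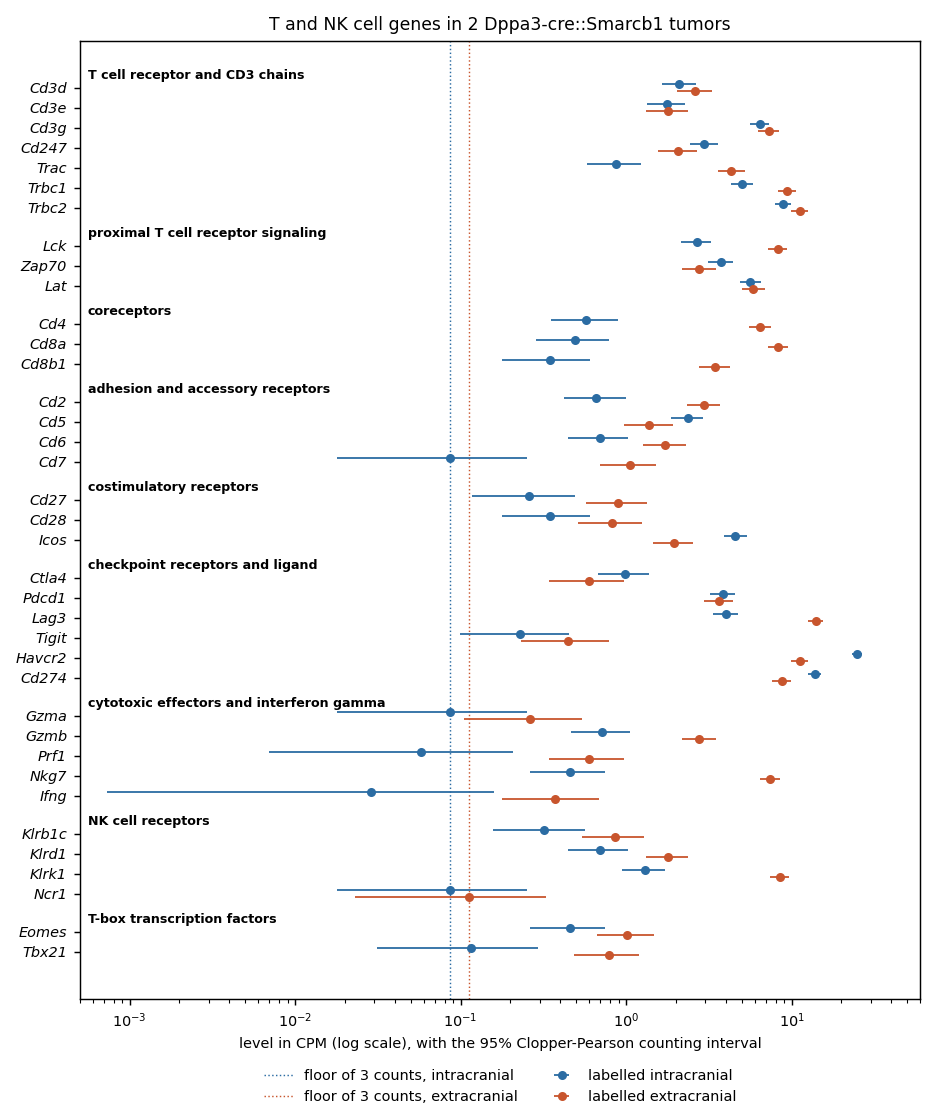
Levels of the 37 T and NK cell genes in CPM on a log axis, grouped by role, in the library labelled intracranial (blue) and in that labelled extracranial (orange), with 95% counting intervals as bars and the level of 3 counts in each library as dotted lines. The 3 coreceptors, Nkg7 and Klrk1 stand far apart between the libraries, the CD3 genes Cd3d, Cd3e and Cd3g overlap, and Icos, Havcr2 and Cd274 are higher in the library labelled intracranial.

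The invariant CD3 chains, which carry the signaling motifs of the T cell receptor, were close to even. Cd3d had 73 counts (2.10 CPM) in the library labelled intracranial and 70 (2.62 CPM) in that labelled extracranial, a log2 ratio of 0.32 (interval -0.18 to 0.81). Cd3e had 61 and 48 counts (1.76 and 1.79 CPM) and a log2 ratio of 0.03 (-0.55 to 0.60). Cd3g had 224 and 195 counts (6.45 and 7.29 CPM), and its log2 ratio was 0.18 (-0.11 to 0.46). The 3 chains thus overlapped between the libraries. Summed over them, the level was 10.3 CPM (interval 9.26 to 11.4) against 11.7 CPM (10.4 to 13.1), so that the summed log2 ratio of 0.18 (-0.04 to 0.41) was within counting error. Cd247, which encodes the zeta chain, went the other way, with 103 counts against 55 (2.96 and 2.06 CPM) and a log2 ratio of -0.53 (-1.03 to -0.04). Exons of Cd3e and Cd247 overlap those of other genes, and whether the counting used strand was not stated.

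The constant genes of the alpha beta receptor were all higher in the library labelled extracranial, but by unequal amounts. Trac, the only constant gene of the alpha chain, had 30 counts (0.863 CPM, interval 0.583 to 1.23) against 116 (4.33 CPM, 3.58 to 5.20), a 5.02-fold difference (3.34 to 7.77). Trbc1 had 175 and 250 counts (5.04 and 9.34 CPM), and its log2 ratio was 0.89 (0.61 to 1.18). Trbc2 had 310 and 300 counts (8.92 and 11.2 CPM), and its log2 ratio was 0.33 (0.10 to 0.56). Trbc1 and Trbc2 are near-identical in sequence, so the division of reads between them is uncertain. Per kilobase of exon, Trbc2 was the highest of all 37 members in both libraries, at 12.9 and 16.2 CPM per kb.

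The proximal kinases and the adaptor that pass on the receptor signal did not move together. Lck, the kinase bound to the coreceptor tails, was higher, with 93 counts (2.68 CPM) against 221 (8.26 CPM) and a log2 ratio of 1.63 (1.27 to 1.99). Zap70, the kinase recruited to phosphorylated CD3 and zeta chains, was slightly lower, with 130 counts (3.74 CPM) against 74 (2.77 CPM) and a log2 ratio of -0.44 (-0.87 to -0.01), although with DESeq2 size factors or upper quartile scaling this interval included an equal level. Lat, the membrane adaptor phosphorylated by ZAP70, had 196 and 157 counts (5.64 and 5.87 CPM), and its log2 ratio of 0.06 (-0.26 to 0.37) was within counting error.

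The coreceptors had the highest median log2 ratio of the role groups, 3.48. Cd4 (ENSMUSG00000023274) had 20 counts (0.576 CPM, interval 0.352 to 0.889) against 172 (6.43 CPM, 5.50 to 7.46), which is 11.2-fold higher (7.01 to 18.7). Cd8a (ENSMUSG00000053977), the alpha chain of CD8, had 17 counts (0.489 CPM, 0.285 to 0.783) against 222 (8.30 CPM, 7.24 to 9.46), which is 17.0-fold higher (10.4 to 29.6). Cd8b1 (ENSMUSG00000053044), the beta chain that marks conventional CD8 T cells, had 12 counts (0.345 CPM, 0.178 to 0.603) against 92 (3.44 CPM, 2.77 to 4.22), which is 9.96-fold higher (5.43 to 20.0). All 3 intervals lay beyond 4-fold, and the summed coreceptor level was 1.41 CPM (1.04 to 1.86) against 18.2 CPM (16.6 to 19.9).

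The coreceptors were also read against the CD3 chains within each library, a ratio that needs no scaling between libraries. Per count of Cd3d, Cd3e and Cd3g there were 0.137 coreceptor counts in the library labelled intracranial, against 1.55 in that labelled extracranial, an 11.3-fold difference (8.09 to 16.1). Taken singly, Cd4 per CD3 count was 9.84-fold higher (5.98 to 16.9), Cd8a 14.9-fold (8.85 to 26.6) and Cd8b1 8.77-fold (4.66 to 17.9). With Cd247 as the denominator the summed difference was 18.6-fold (11.7 to 29.5), and with Trac, Trbc1 and Trbc2 it was 7.67-fold (5.57 to 10.7). The division among the coreceptors did not differ beyond counting error: Cd8a per Cd4 count was 0.850 and 1.29, a ratio of 1.52 (0.730 to 3.19), and Cd8b1 per Cd8a count was 0.706 and 0.414, a ratio of 0.587 (0.253 to 1.41). These divisions and those by Ptprc, Csf1r and Clec9a below were chosen after the data had been seen.

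Transcripts of myeloid cells, which can make Cd4 or Cd8a, also differed. Of 12 macrophage genes, 11 were higher and 1 lower beyond counting error (summed 5949 CPM against 13475 CPM, median log2 ratio 1.53, none at 0). Of 10 conventional dendritic cell genes, 7 were higher and 1 was lower (summed 41.2 CPM against 101 CPM, median 1.24, none at 0). Clec9a, which marks the cross-presenting dendritic cells that can carry CD8 alpha, had 10 counts against 148. Cd8a per Clec9a count was 1.70 and 1.5, a ratio of 0.882 (0.351 to 2.11), a difference within counting error. Clec9a had the highest log2 ratio of these 10 genes (4.26), and the others ran from -0.53 (Itgae and Cd209a) to 3.18 (Xcr1). The even value is for this marker alone, and Cd8a was not divided by the other genes of the list. Cd4 per count of Csf1r, the macrophage growth factor receptor, was 3.22-fold higher (2.02 to 5.40) in the library labelled extracranial. The part of myeloid cells in the Cd4 and Cd8a difference was not tested.

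Adhesion and accessory receptors of T cells were split. Cd2, a receptor that binds CD48 on other cells, had 23 counts (0.662 CPM) against 79 (2.95 CPM), and its log2 ratio was 2.16 (1.47 to 2.89). Cd6, a scavenger receptor family member that tunes activation, had 24 and 46 counts (0.691 and 1.72 CPM), and its log2 ratio was 1.32 (0.57 to 2.09). Cd7, an immunoglobulin family receptor of T and NK cells, had 3 counts, at the floor, against 28, at a log2 ratio of 3.60 with a wide interval (1.90 to 5.96). These 3 were higher in the library labelled extracranial. Cd5, an inhibitory scavenger receptor related to CD6, was lower there, with 82 counts (2.36 CPM) against 37 (1.38 CPM) and a log2 ratio of -0.77 (-1.37 to -0.19).

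The costimulatory receptors were likewise divided. Cd28, which provides the second signal to naive T cells, had 12 counts against 22 (0.345 and 0.822 CPM), and its log2 ratio was 1.25 (0.17 to 2.40). Cd27, a TNF receptor family member of naive and memory lymphocytes, had 9 against 24 (0.259 and 0.897 CPM), and its log2 ratio was 1.79 (0.64 to 3.08). Icos, induced after T cell activation, had 159 counts (4.58 CPM, interval 3.89 to 5.35) against 52 (1.94 CPM, 1.45 to 2.55), and was 2.35-fold higher (1.71 to 3.29) in the library labelled intracranial. Icos thus had the lowest log2 ratio of the members, -1.24, while its relative Cd28 lay on the other side of an equal level.

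Among the inhibitory receptors and the ligand PD-L1, Lag3 alone was higher in the library labelled extracranial. Lag3, a CD4-like receptor that binds MHC class II, had 139 counts (4.0 CPM, interval 3.36 to 4.72) against 374 (14.0 CPM, 12.6 to 15.5), a log2 ratio of 1.80 (1.52 to 2.10). Havcr2, which encodes TIM-3, had 868 counts (25.0 CPM) against 299 (11.2 CPM) and was 2.24-fold higher (1.96 to 2.56) in the library labelled intracranial. Cd274, which encodes PD-L1, had 479 counts (13.8 CPM) against 233 (8.71 CPM) and was 1.58-fold higher (1.35 to 1.86) there. Macrophages can make Havcr2 and Cd274. In the macrophage list 11 genes were higher in the library labelled extracranial and 1 (Mertk, 1168 counts against 606) was lower. The part of macrophages or of other cells in the levels of Havcr2 and Cd274 was not tested. Pdcd1, the PD-1 receptor, had 133 and 97 counts (3.83 and 3.62 CPM), at a log2 ratio of -0.08 (-0.47 to 0.31). Ctla4, which competes with CD28 for its ligands, had 34 counts against 16, at a log2 ratio of -0.71 (-1.67 to 0.19), and Tigit, a receptor for nectin family ligands, had 8 against 12, at a log2 ratio of 0.96 (-0.45 to 2.46). The last 3 genes differed by less than the counting error, and for Ctla4 and Tigit the intervals left room for differences of more than 2-fold.

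The cytotoxic effectors were low in the library labelled intracranial and higher in that labelled extracranial. Nkg7 (ENSMUSG00000004612), a granule membrane protein of cytotoxic lymphocytes, had 16 counts (0.460 CPM, interval 0.263 to 0.748) against 198 (7.40 CPM, 6.40 to 8.50), which is 16.1-fold higher (9.65 to 28.7). Gzmb, the granule protease that cleaves caspases, had 25 counts (0.719 CPM) against 74 (2.77 CPM), and its log2 ratio was 1.94 (1.27 to 2.66). Prf1, the pore-forming perforin, had 2 counts against 16, a log2 ratio of 3.38 (1.29 to 6.54). Ifng, the cytokine interferon gamma, had 1 count against 10, a log2 ratio of 3.70 (0.89 to 9.14). Their intracranial counts were at or below the floor, so the size of these differences is poorly fixed. Gzma, a granule protease with trypsin-like activity, had 3 counts against 7 and a log2 ratio of 1.60 (-0.53 to 4.18), within counting error. Summed over the 5 genes, the level was 1.35 CPM (0.994 to 1.80) against 11.4 CPM (10.2 to 12.8).

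NK cell receptors were also higher, led by a receptor that T cells share. Klrk1 (ENSMUSG00000030149), which encodes the activating receptor NKG2D of NK cells and CD8 T cells, had 45 counts (1.30 CPM, interval 0.945 to 1.73) against 228 (8.52 CPM, 7.45 to 9.70), which is 6.58-fold higher (4.76 to 9.27). Klrd1, which encodes CD94, had 24 and 48 counts (0.691 and 1.79 CPM), and its log2 ratio was 1.38 (0.64 to 2.15). Klrb1c, the NK1.1 antigen of C57BL/6 mice, had 11 and 23 counts (0.317 and 0.859 CPM), and its log2 ratio was 1.44 (0.35 to 2.63). Ncr1, which encodes NKp46 and is the receptor most limited to NK cells among these 4, had 3 counts in each library and stayed at the floor in both. Of the T-box factors that direct effector programs, Tbx21 (T-bet) had 4 counts against 21, at a log2 ratio of 2.77 (1.20 to 4.77), and Eomes had 16 against 27, at a log2 ratio of 1.13 (0.19 to 2.12).

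**Figure D2:**
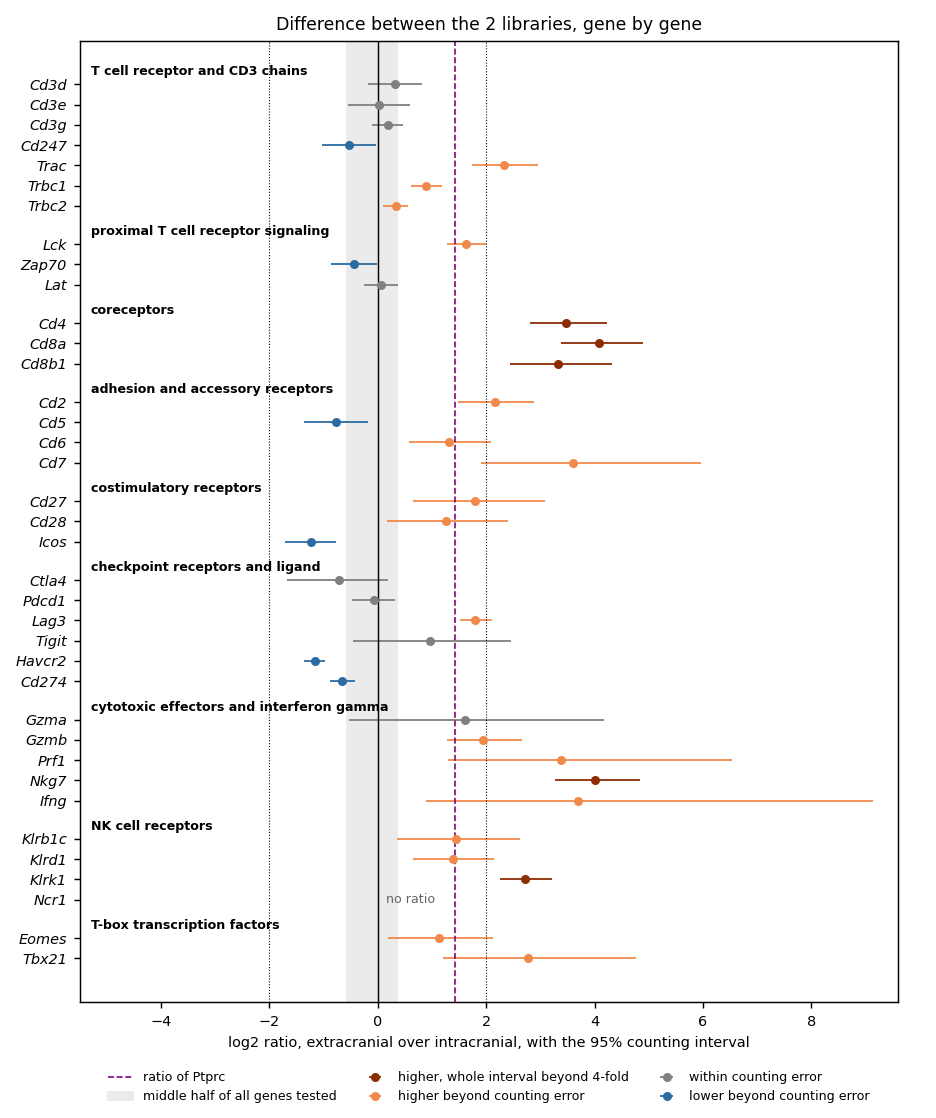
Log2 ratios extracranial over intracranial of the T and NK cell genes, with 95% counting intervals as bars, grouped by role. Lines mark an equal level (solid), 4-fold (dotted) and the ratio of Ptprc (dashed), and the gray band the quartiles of all genes tested. The 5 genes whose whole interval lies beyond 4-fold are Cd8a, Nkg7, Cd4, Cd8b1 and Klrk1, and the lowest ratios are those of Icos and Havcr2. Ncr1, at 3 counts in each library, has no ratio.

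Set in order per kilobase of exon, the leading members changed between libraries. In the library labelled intracranial, Trbc2 (12.9 CPM per kb) was followed by Havcr2 (9.18), Trbc1 (6.72), Cd274 (3.81) and Lat (2.04), and Lat was close to Pdcd1 (1.98), Cd3g (1.97) and Lag3 (1.90). In the library labelled extracranial, Trbc2 (16.2) was followed by Trbc1 (12.5), Nkg7 (8.10), Lag3 (6.63), Trac (4.64) and Havcr2 (4.11). Among the 37 members, Nkg7 was at rank 16 in the library labelled intracranial and at rank 3 in that labelled extracranial, and Cd8a was at ranks 26 and 10.

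Genes of the gamma delta T cell lineage, which are not among the 37, ran opposite to the coreceptors. Of 8 such genes, 7 were lower beyond counting error in the library labelled extracranial, 5 of them beyond 4-fold, and 0 were higher, with a median log2 ratio of -3.31 and a summed level of 59.5 CPM against 8.97 CPM. Trdc, the constant gene of the delta chain, had 273 counts (7.86 CPM) in the library labelled intracranial and 4 (0.149 CPM) in that labelled extracranial, 52.6-fold higher (20.3 to 194) in the former. Tcrg-C1, a constant gene of the gamma chain, had 275 counts against 22, and Tcrg-C4 had 51 against 7. Tcrg-C2, which is near-identical to Tcrg-C1, had 111 against 63 and was within counting error. The division of reads between these genes is uncertain. Il17a, the cytokine interleukin 17A of gamma delta and helper T cells, had 70 counts against 0, so that the library labelled intracranial was higher by at least 18.0-fold when 3 counts are taken as the floor. Cd163l1, a scavenger receptor of interleukin 17-producing gamma delta T cells, had 739 counts against 3, a log2 ratio of -7.57 (-9.85 to -6.01). Blk, a Src family kinase that B cells also express, had 213 against 16, and Sox13, a transcription factor of the lineage and of other tissues, had 335 against 125.

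The balance of counts between receptor types differed between the libraries. Trdc came to 9.10 counts per Trac count in the library labelled intracranial, against 0.0345 in that labelled extracranial. Trdc has more exon bases than Trac (3865 against 935). Per kilobase, Trdc and Trac were at 2.03 and 0.923 CPM in the library labelled intracranial. In that labelled extracranial they were at 0.0387 and 4.64 CPM per kb. Of the counts on gamma and delta constant genes and on Trac, Trbc1 and Trbc2 together, the gamma and delta genes took 58.0% (Clopper-Pearson interval 55.1 to 60.7) against 12.6% (10.3 to 15.2). These shares are of counts, not corrected for exon length, and do not show which receptor type was more abundant. Per kilobase in the library labelled intracranial, Trbc2 (12.9 CPM) was above every gamma and delta constant gene, of which Tcrg-C1 (8.57 CPM) was highest. The variable and joining segments, which are short and were read with few counts, showed the same split for the delta chain, with 32 counts, on 2 of 10 segments, against 0. Gamma segments had 35 counts against 11, beta segments 27 against 55 and alpha segments 45 against 35. The alpha segments thus did not follow Trac, which had 30 counts against 116. Trdv4 alone had 30 counts against 0 and was higher by at least 7.70-fold in the library labelled intracranial, and Tcrg-V6, with 11 against 0, was higher by at least 2.82-fold. These comparisons of receptor types were made after the data had been seen. The epithelial transcripts given above (Krt5, Krt13, Krt14 and Epcam) were high in the same library as the gamma delta genes, and their part in the difference was not tested.

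**Figure D3:**
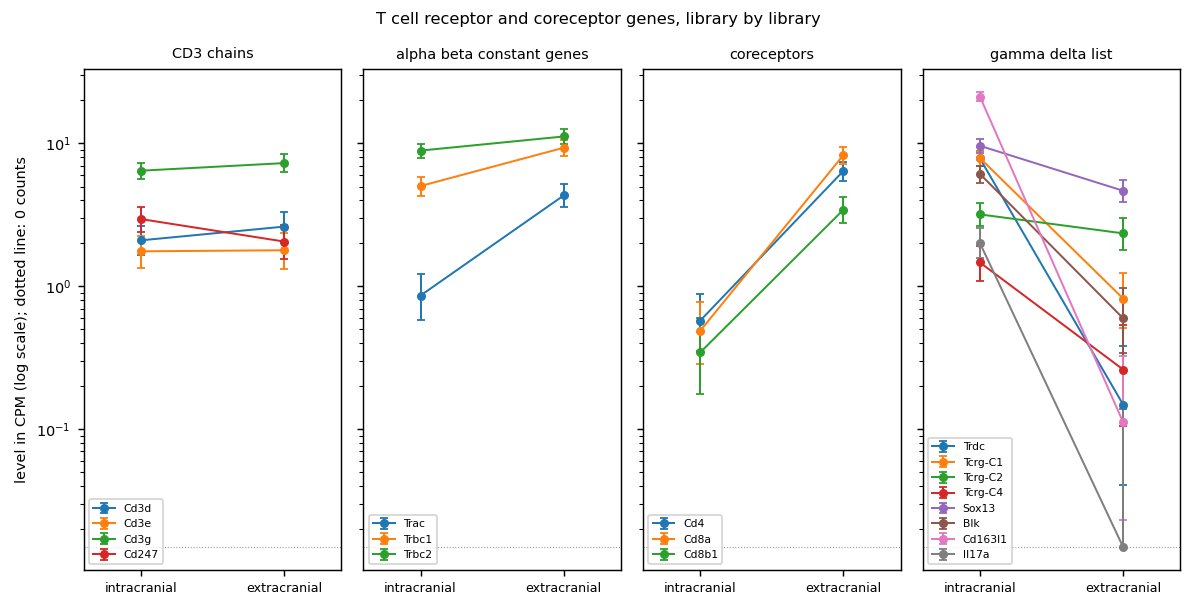
Levels in CPM on a log axis, in the library labelled intracranial (left of each panel) and in that labelled extracranial (right), of the CD3 chains, the alpha beta constant genes, the coreceptors and the gamma delta list, each gene in its own color with 95% counting intervals as bars. Il17a in the library labelled extracranial, at 0 counts, is drawn on the dotted line. Cd3d, Cd3e and Cd3g overlap between the libraries, Trdc and Tcrg-C1 are higher in the library labelled intracranial, and Trac, Cd4, Cd8a and Cd8b1 are higher in that labelled extracranial.

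Other T cell genes were mixed in direction. Of 32 genes of T cell signaling and identity, 14 were higher and 10 lower beyond counting error, 8 differed by less, and the median log2 ratio was 0.49. Higher in the library labelled extracranial were Cxcr3, the chemokine receptor of type 1 effector T cells, with 24 counts against 132 (7.14-fold, 4.60 to 11.5), and Ccr7, the receptor that guides naive T cells and mature dendritic cells to lymph nodes, with 34 against 165 (6.30-fold, 4.34 to 9.40). Higher in the library labelled intracranial were Il2ra, the alpha chain of the interleukin 2 receptor, with 291 against 24 (9.34-fold, 6.15 to 14.8), and Bcl11b, a T lineage factor that skin epithelium also expresses, with 508 against 47 (8.32-fold, 6.17 to 11.5). The whole interval of each of these 4 genes lay beyond 4-fold. Il7r, the receptor for interleukin 7, was 3.70-fold higher (2.65 to 5.30) in the library labelled intracranial, with 202 counts against 42. Foxp3, the regulatory T cell factor, had 4 counts against 9, within counting error. Gata3 and Lef1 were also within counting error, at 17 against 15 counts and 364 against 288.

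Of 17 further cytotoxic and NK cell genes, 15 had enough counts, and 7 of these were higher and 2 lower beyond counting error, with a median log2 ratio of 1.01. Fasl, the death receptor ligand of cytotoxic cells, had 1 count against 24, a ratio of 31.2 with an interval from 5.08 to 1282. Its count in the library labelled intracranial was below the floor, so the size of the difference is poorly fixed. Gzmk, a granzyme of memory CD8 T cells, had 8 against 21, Xcl1, the chemokine that draws cross-presenting dendritic cells, had 7 against 25, and Ctsw, a cathepsin of cytotoxic lymphocytes, had 80 against 147. All 4 were higher in the library labelled extracranial. Klra4, of the Ly49 receptor family, had 127 counts against 7, and Il18rap, a chain of the interleukin 18 receptor, had 203 against 83, and both were higher in the library labelled intracranial. Members of the Ly49 family resemble each other closely and may share reads.

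Leukocyte transcripts as a whole were also more abundant in the library labelled extracranial. Of 8 pan-leukocyte genes, 7 were higher and 0 lower beyond counting error (summed 890.1 CPM against 2157 CPM, median log2 ratio 1.33, none at 0). Ptprc, which encodes CD45, had 2482 counts (71.4 CPM) against 5109 (191 CPM), and its log2 ratio was 1.42 (1.35 to 1.49), close to the median of 1.35 over the members. Over members with 100 or more counts the median was 0.32, below that of Ptprc. Per Ptprc count, the CD3 chains were 2.35-fold lower (2.0 to 2.77) in the library labelled extracranial, whereas the coreceptors were 4.82-fold higher (3.57 to 6.63). Of the 36 members tested, 9 were higher per Ptprc count beyond counting error (Trac, Cd4, Cd8a, Cd8b1, Cd2, Cd7, Lag3, Nkg7 and Klrk1), 14 were lower and 13 were within counting error. Per Ptprc count, 3.48% of the 21976 genes tested beside Ptprc itself were higher and 85.1% were lower by the same rule, so a lower value per Ptprc count was the common case over all genes. Beyond 4-fold, 0 members were higher and 2 were lower (Icos and Havcr2), against 0.396% and 13.7%. The members lower beyond counting error included all CD3 and zeta chains, Trbc1, Trbc2, Zap70, Lat, Cd5, Icos, Ctla4, Pdcd1, Havcr2 and Cd274. Macrophages also carry CD45, and the part of the macrophage difference given above in the values per Ptprc count was not tested.

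The lists of other immune cells differed in both directions. B and plasma cell genes were higher for 5 and lower for 0 of 7 with enough counts (summed 5.18 CPM against 41.0 CPM), and Mzb1 was at 0 in the library labelled intracranial. Neutrophil genes were lower for 6 of 6 with enough counts (719.9 CPM against 1.12 CPM). S100a9 (14455 counts against 13) and S100a8 (8970 against 9) held most counts of this list in the library labelled intracranial. Ly6g (4 against 1), Elane (1 against 0) and Mpo had too few counts. The epithelial transcripts given above were high in the same library, and their part in the sum of this list was not tested. Retnlg, Elane and Mpo were at 0 in the library labelled extracranial, and Mpo was also at 0 in that labelled intracranial. Plasmacytoid dendritic cell genes were mixed, with 3 higher and 3 lower of 8 (655 CPM against 496 CPM), and Ly6d, which squamous epithelium also makes, had 7359 counts against 9. Mast cell genes had enough counts for 2 of 6 only, with 1 higher (Kit) and 1 lower (4.0 CPM against 5.34 CPM), and Cpa3, Mcpt4, Tpsb2, Cma1 and Fcer1a were at 0 in the library labelled extracranial. Kit alone held all 143 counts of this list in the library labelled extracranial and 102 of 139 in that labelled intracranial. Whether any of these cells contributed to the levels of Lag3, Klrk1, Gzmb or Prf1, which are not limited to T and NK cells, was not tested.

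**Figure D4:**
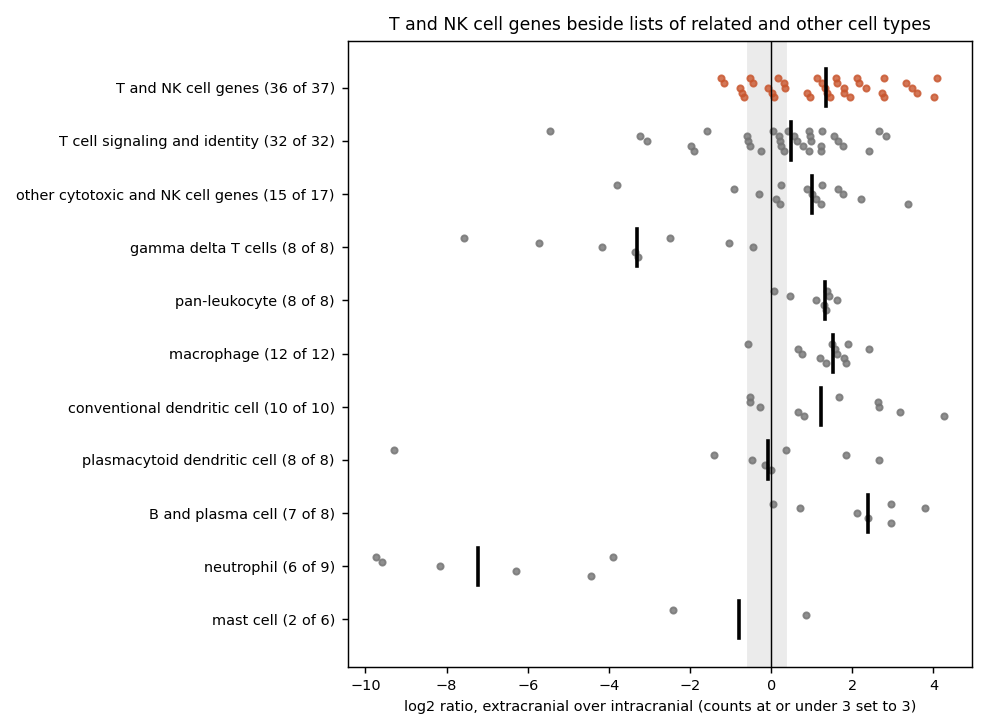
Log2 ratios extracranial over intracranial of single genes (points) in the T and NK cell genes (orange) and in lists of related and other cells (gray), with counts of 3 or fewer set to 3, list medians as black bars, and the quartiles of all genes tested (-0.57 to 0.36) as a gray band. Numbers beside each list give the genes with enough counts of all its genes. The T and NK cell genes have a median of 1.35 beside 1.33 for pan-leukocyte and 1.53 for macrophage genes, and the gamma delta list lies wholly below an equal level with a median of -3.31.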

How the data were processed

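Raw read counts per Ensembl gene had been deposited for 2 tumors, 1 library per location, and samples were grouped by the localization label alone. The authors made directional libraries from poly(A)-selected RNA, read single ends, aligned with STAR (version 2.7.9a, genome GRCm39 per the submitters' processing notes) and produced the deposited counts with featureCounts on Ensembl release 104. Strand and multi-mapping settings were not given in the sources used here, so counts of overlapping and near-identical genes are uncertain. Exons of 10 of the 37 members overlap another gene.

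Symbols (52083 IDs, 93.99%) and exon lengths came from GENCODE release M21, which is built on an older genome, and promoter windows from RefSeq. Library sizes (34545846 and 26915696 counts) were scaled by TMM (edgeR 4.0.16, R 4.3.3). Levels were given Clopper-Pearson 95% intervals and ratios conditional exact binomial 95% intervals (scipy 1.17.1), for genes with 10 or more counts over both libraries. In medians, counts of 3 or fewer were set to 3, and genes with no more than 3 in either library were left out. No p-value was computed. The calculation was checked on counts simulated with counting error alone, with changes set only in genes with many counts. Such counts hold no variation between tumors and no copies of a molecule, so the check does not bear on these. The members and lists were chosen with earlier results of these data known. Every member could be named, as could the genes of the lists of related and other cells, Smarcb1 and Ptprc, and receptor segments were summed by family. The epithelial genes and the segments named singly were chosen after their values were seen. A gene of the T cell signaling and identity list is counted in that list and not reported here by name.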

Additional observations from a re-analysis of the deposited data

How the results depend on the processing

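With 1 library per location, no library could be left out. No paired analysis was possible because the result comes from no test and the locations share no pairs of libraries. Of 56 alternative values, 43 were close to the main value (counts within 1.5 times, other values within their interval or 0.1), 12 moved and 1 changed sign. With DESeq2 size factors, total counts or upper quartile scaling, 22 members were higher and 5 or 6 lower beyond counting error. Of the single members, Zap70 alone changed its call under these scalings, and its interval included an equal level with DESeq2 size factors and with the upper quartile. With 100 or more counts required, 11 members in place of 22 were higher beyond counting error in the library labelled extracranial. Lower were 6, as in the main setting. The median log2 ratio was 0.32 in place of 1.35. The count of higher members could only fall when members were left out. The median could have moved either way, so its main value of 1.35 depended on the members with fewer counts. In place of 5 members higher beyond 4-fold, 13 were higher when the interval had to lie beyond 2-fold and 11 when the ratio alone, whatever its interval, was beyond 4-fold. None was lower by either rule. The shares of all genes called by these looser rules were not computed, so these counts have no background beside them. Without Cd4, Cd8a, Havcr2 and Cd274, which other cells also make, the summed levels were 62.8 and 113 CPM. Counts per Ptprc count, a choice made after the data had been seen, gave 0 members higher and 2 lower (Icos and Havcr2) beyond 4-fold, 9 higher and 14 lower beyond counting error, and a median log2 ratio of -0.07, because Ptprc itself had a log2 ratio of 1.42. The coreceptor ratio of 11.3 per CD3 count was 18.6 with Cd247 and 7.67 with Trac, Trbc1 and Trbc2 as the denominator, and the cause was not tested. Depth limits Prf1, Ifng, Gzma, Cd7 and Ncr1, which had 3 or fewer counts in the library labelled intracranial.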
